A study of Sus scrofa with 6 samples.

Results

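Collagens are the main fibrous proteins of the matrix around fat cells. Each gene encodes 1 alpha chain, and chains wind into triple helices inside the cell before they are secreted, trimmed and crosslinked. In adipose tissue, fibroblasts and progenitor cells make most of the fibrillar collagen, adipocytes are wrapped in a basement membrane built on type IV collagen, and type VI collagen forms beaded filaments between that membrane and the fibrils. The genes described here are all rows whose pig symbol reads COL, a number, A and a number, leaving out 3 such rows (COL2A1, COL11A1 and COL11A2) by rule. This gave 35 genes of 22844 rows. They comprise 8 fibrillar chains, 7 basement membrane chains, 5 chains of type VI, 7 FACIT chains (fibril-associated collagens with interrupted triple helices) and 8 others. COL4A1, the usual partner of COL4A2, was not analysed here.

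The study measured total RNA of subcutaneous fat from pigs crossed from Duroc, Landrace and Yorkshire lines. Control 1, 2 and 3 came from the control diet, and resveratrol 1, 2 and 3 from feed containing resveratrol, a polyphenol of grapes, at 400 mg/kg. The labels used here give no age, sex or length of feeding. They leave unsaid whether the 3 libraries of a diet are 3 animals, so p-values reflect only the spread between libraries, which may be technical. Libraries held 16251536 (control 2) to 37943877 reads (resveratrol 2). The summed TPM of 7 adipocyte markers was 17111 in control 1, the lowest library, and 20990 to 26604 elsewhere. Within that list FABP4, the fatty acid carrier, measured 11828 to 19979 TPM and LEP 8.57 to 29.3 TPM. The summed TPM of 3 skeletal muscle markers was at most 1.40. Levels are TPM, a length-scaled transcript abundance in which one assembled locus, MSTRG.12981, took 16.6% to 25.8% of each library. Fold changes are log2 values of resveratrol against control from edgeR's quasi-likelihood test on read counts, with a standard error (SE).

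Control 1 stood apart from the other 5 libraries in collagen and in tendon genes. Of 26 collagen genes that passed the filter (a mean of at least 0.5 TPM), 15 (57.7%) had their highest TPM in control 1, against 13.0% of all 14908 rows tested. In 10 of the 26 (38.5%) the TPM in control 1 was at least 2 times the median of the other libraries, against 3.51% of all rows. The 10 were COL8A2, COL8A1, COL1A1, COL12A1, COL1A2, COL16A1, COL6A2, COL6A3, COL28A1 and COL21A1. Of 12 tendon and cartilage markers, the 10 that passed the filter all had their highest TPM in control 1. No marker of that list was at 0 in all 6 libraries. ACAN, 1 of the 10, measured 4.26 TPM in control 1 and 0.0698 to 0.893 TPM elsewhere, so its mean rested largely on control 1. Below the filter, MATN3 was highest in control 1 (0.544 TPM), whereas CNMD was lowest there (0.0230 TPM) and highest in control 2 (0.747 TPM). The 12 markers summed to 460 TPM in control 1, 73.0 in control 2 and 97.7 in control 3, and 49.8 to 80.6 TPM in the resveratrol libraries. TNMD (tenomodulin, a tendon membrane protein) had a level of 37.1 TPM in control 1, and control 3 was next highest at 2.70 TPM. THBS4, a tendon matrix protein, measured 192 TPM in control 1 and at most 31.2 elsewhere, in control 3. In edgeR, all 10 tested markers had a log2 fold change below 0, against 51.2% of all rows, with a median of -2.22. Of the 10, 5 were lower in resveratrol at an unadjusted p under 0.05, against 4.32% of all rows, and 0 passed adjustment. Without control 1, 4 were lower at that threshold, against 4.21%. The median was then -0.88, and CILP (0.38) and KERA (0.16) lay above 0. The part of these markers in the collagen values was not tested. In bulk tissue, fewer cells of a type and less RNA per cell cannot be told apart.

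**Figure D1:**
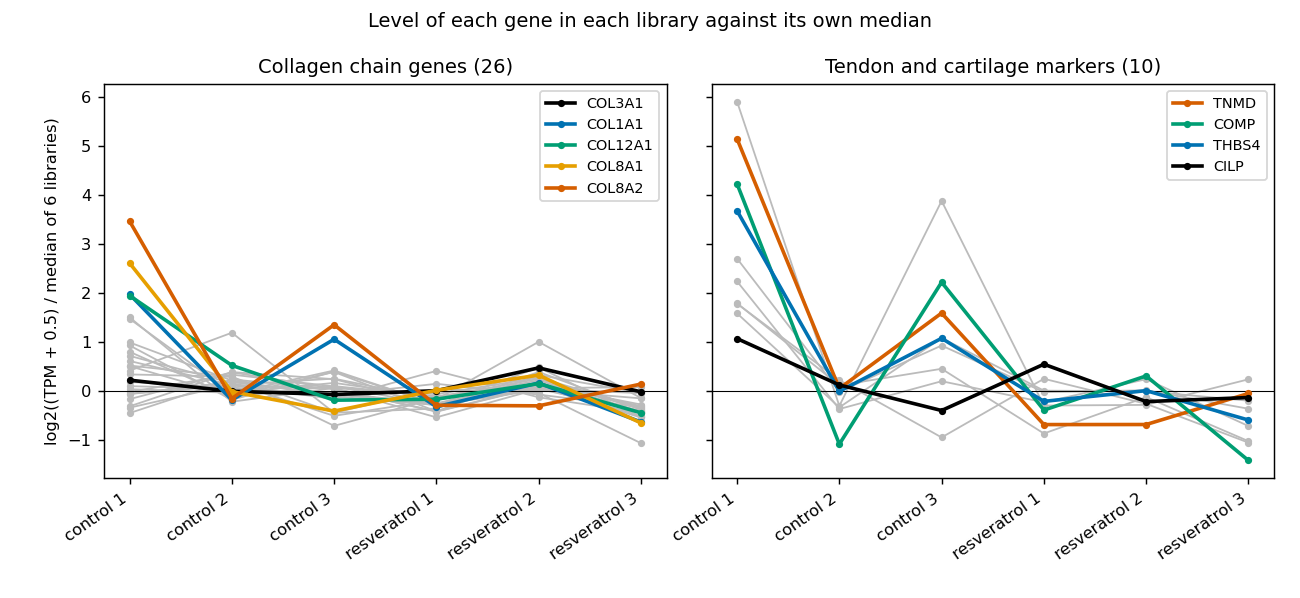
Each line is 1 gene, drawn over the 6 libraries (x axis) as log2 of its TPM plus 0.5 over its own median (y axis); the left panel holds the 26 tested collagen genes and the right panel the 10 tested tendon and cartilage markers, with named genes in colour or black and the rest in grey. COL8A2, COL8A1, COL1A1 and COL12A1 peak in control 1, COL8A2 and COL1A1 have their next highest value in control 3, and COL3A1 stays near its median.

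No collagen gene passed the diet comparison. EdgeR called 0 of 14908 rows at an adjusted p under 0.05 (0.0% of all rows). At an unadjusted p under 0.05 it had 973 rows (6.53%), and DESeq2 called 40 (0.269%) at an adjusted p under 0.05. At an unadjusted p under 0.05, 3 of 26 collagen genes (11.5%) were lower in resveratrol, against 4.32% of all rows, and 0 were higher, against 2.21%. These 3 were COL1A1, COL8A2 and COL16A1. Log2 fold changes were below 0 in 22 of 26 (84.6%), against 51.2% of all rows, with a median of -0.31 against -0.0075. Without control 1, the 22 became 14 (53.8%, against 51.1% of all rows), the median was -0.0118, and 0 genes had an unadjusted p under 0.05 in either direction (4.21% of all rows lower, 2.90% higher). The count of 3 was also 0 without resveratrol 1 or resveratrol 3, and 2 without control 3 or resveratrol 2. The genes were COL12A1 and COL6A3 without control 3, and COL1A1 and COL27A1 without resveratrol 2. The calls over all 14908 rows moved too, from 973 in either direction to 556 without resveratrol 1 and 403 without resveratrol 3. They were 1681 without control 3 and 911 without resveratrol 2. Without control 2 the count of collagen genes was 8, against 5.69% of all rows in that fit. In TPM, 0 of the 26 had resveratrol libraries all below or all above the control libraries, against 8.15% and 4.11% of all rows. On TMM-scaled counts per library total, COL10A1 alone of the 26 had all resveratrol libraries below all control libraries, against 6.97% of all rows.

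**Figure D2:**
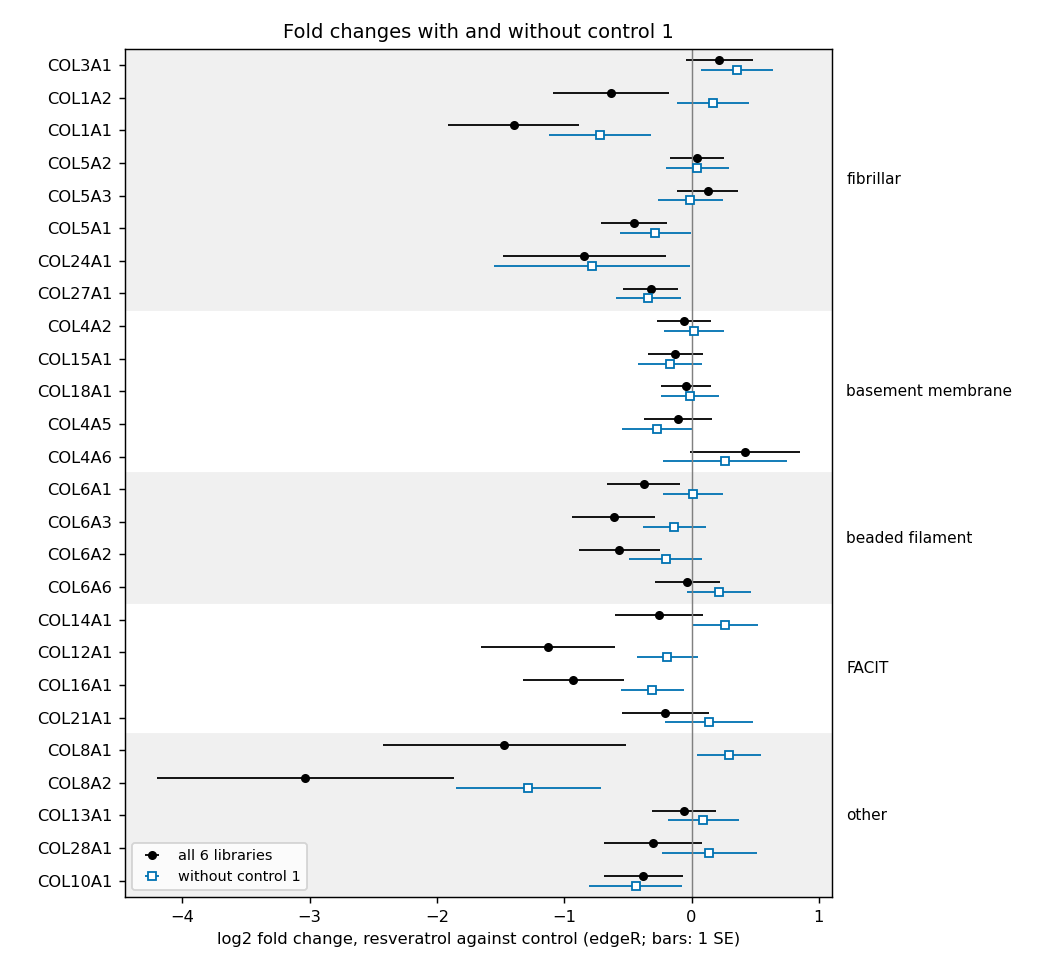
Log2 fold change of resveratrol against control (x axis) for each of the 26 tested collagen genes (y axis, grouped by family), from edgeR, with bars of 1 SE; black circles use all 6 libraries and open blue squares leave out control 1. Type I, VI, VIII, XII and XIV chains shift toward 0 or past it without control 1, while COL4A2, COL18A1 and COL5A2 shift by less than 0.1.

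The fibrillar chains, which form the cross-striated fibrils that carry tension, made up 80.1% to 83.9% of collagen TPM. COL1A1, COL1A2 and COL3A1 alone made up 71.0% (control 2) to 79.9% (control 1). All collagen genes together took 9.89%, 4.77% and 5.43% of reads in control 1, 2 and 3, and 5.20%, 6.34% and 4.90% in resveratrol 1, 2 and 3. The group ranges overlapped, with control 1 highest and control 2 lowest. Of the 8 fibrillar chains, 5 had a log2 fold change below 0, against 51.2% of all rows. Without control 1 there were again 5, but COL1A2 had moved above 0 (0.17) and COL5A3 just below it (-0.0094). The family median was -0.39, and -0.15 without control 1.

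COL1A1 (ENSSSCG00000036135.1) encodes the alpha 1 chain of type I collagen, the chief collagen of skin, tendon and bone. It measured 3536, 793 and 1871 TPM in control 1, 2 and 3, against 720.4, 1008 and 580.4 TPM in resveratrol 1, 2 and 3. Control 1 and 3 lay above every resveratrol library, while control 2 lay between resveratrol 1 and 2. The means were 2066 ± 1382 and 769.5 ± 218 TPM (SD, n = 3 each). The log2 fold change was -1.40 (SE 0.52), with an edgeR unadjusted p of 0.0243 and an adjusted p of 0.733. Without control 1 it was -0.72, with an unadjusted p of 0.102.

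COL1A2 (ENSSSCG00000015326.3) encodes the alpha 2 chain that joins a pair of alpha 1 chains in type I collagen. It measured 4241, 1285 and 1561 TPM in the control libraries, against 1431, 1807 and 1181 TPM in the resveratrol libraries. Control 1 stood alone, and the other 5 libraries were intermixed. Its log2 fold change of -0.63 (SE 0.45) became 0.17 without control 1. COL3A1 (ENSSSCG00000016034.3), the homotrimeric type III collagen of soft, extensible tissues, measured 3231, 2762 and 2638 TPM on the control diet against 2783, 3844 and 2739.9 TPM with resveratrol. These 6 values spanned a 1.46-fold range, against 6.09-fold for COL1A1 and 3.59-fold for COL1A2. The log2 fold change of COL3A1 was 0.22 (SE 0.26).

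Type V chains enter the core of type I fibrils and limit their width. COL5A1 measured 133, 87.0 and 122 TPM on the control diet against 69.7, 99.4 and 70.0 TPM with resveratrol. Control 1 and 3 lay above all resveratrol libraries and control 2 did not, the same order as for COL1A1. Its log2 fold change was -0.45 (SE 0.26) and -0.28 without control 1. COL5A2 measured 342, 405 and 340.4 TPM on the control diet against 291, 371 and 376 TPM with resveratrol. COL5A3 measured 74.3, 119.9 and 105 TPM on the control diet against 76.2, 128 and 98.9 TPM with resveratrol. The diets overlapped in both genes, with log2 fold changes of 0.04 (SE 0.21) and 0.13 (SE 0.24). COL3A1 and COL5A2 are direct neighbours among protein-coding genes in RefSeq's Sscrofa11.1 annotation, and neither had its control 1 value above 1.17 times the median of the other libraries.

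The remaining fibrillar chains, COL24A1 and COL27A1, are minor collagens of developing bone and cartilage. COL27A1 ranged from 0.957 to 1.79 TPM and COL24A1 from 0.538 to 4.45 TPM. Their log2 fold changes were -0.32 (SE 0.22) and -0.84 (SE 0.64). The COL24A1 levels rest on 4 to 15 reads per library.

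**Figure D3:**
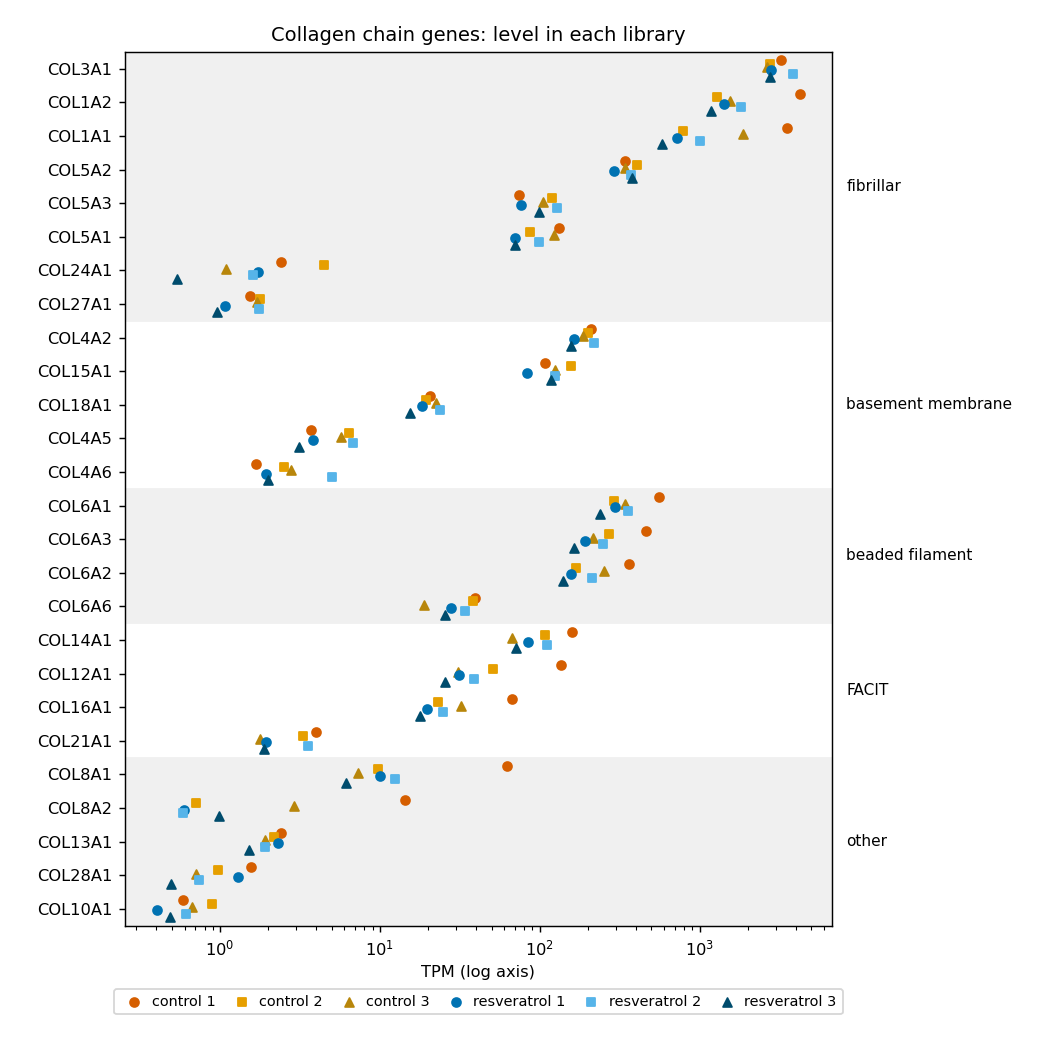
TPM (x axis, log scale) of the 26 tested collagen genes (y axis), grouped by family on shaded and white bands, with 1 point per library; orange and brown points are control 1 to 3 and blue points resveratrol 1 to 3. Levels run from COL10A1, at 0.403 to 0.885 TPM, to COL1A2 at 4241 TPM in control 1, and control 1 lies to the right of the other libraries in type I, VI, VIII, XII and XVI chains.

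Because the level of a single chain depends on the scaling of its library, ratios between chains were compared within each library. Type I and type III collagen share fibrils, and type I needs both of its chains. The COL1A1/COL1A2 ratio of TPM was 0.834, 0.617 and 1.198 in control 1, 2 and 3. It was 0.503, 0.558 and 0.491 in resveratrol 1, 2 and 3. Every resveratrol library lay below every control library, and only control 3 had more COL1A1 than COL1A2. The difference in mean log2 ratio was -0.72 (SD 0.48 in control and 0.097 in resveratrol, n = 3 each). The exact two-sided permutation p was 0.10, the smallest that 3 against 3 libraries allow, and 0.25 after Benjamini-Hochberg adjustment over 5 ratios. The difference was -0.73 without control 1 and -0.47 without control 3.

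The COL3A1/COL1A1 ratio of TPM was 0.914, 3.48 and 1.410 in the control libraries and 3.86, 3.82 and 4.72 in the resveratrol libraries. These groups did not overlap either, though control 2 lay close to resveratrol 1 and 2. The log2 difference was 1.32 (SD 0.99 and 0.17), with an exact permutation p of 0.10 and 0.25 after adjustment, and 0.89 without control 1. This ratio shares COL1A1 with the one before, so the pair are not separate measurements. The ratios COL5A1/COL5A2, COL6A1/COL6A2 and COL6A3/COL6A1 overlapped between the groups. Their log2 differences were -0.44, 0.19 and -0.21, with exact permutation p-values of 0.30, 0.30 and 0.40. With 1 library left out they ranged from -0.71 (without control 2) to -0.28 (without control 1), from 0.10 (without control 3) to 0.28 (without control 2), and from -0.37 (without control 3) to -0.0985 (without control 2).

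**Figure D4:**
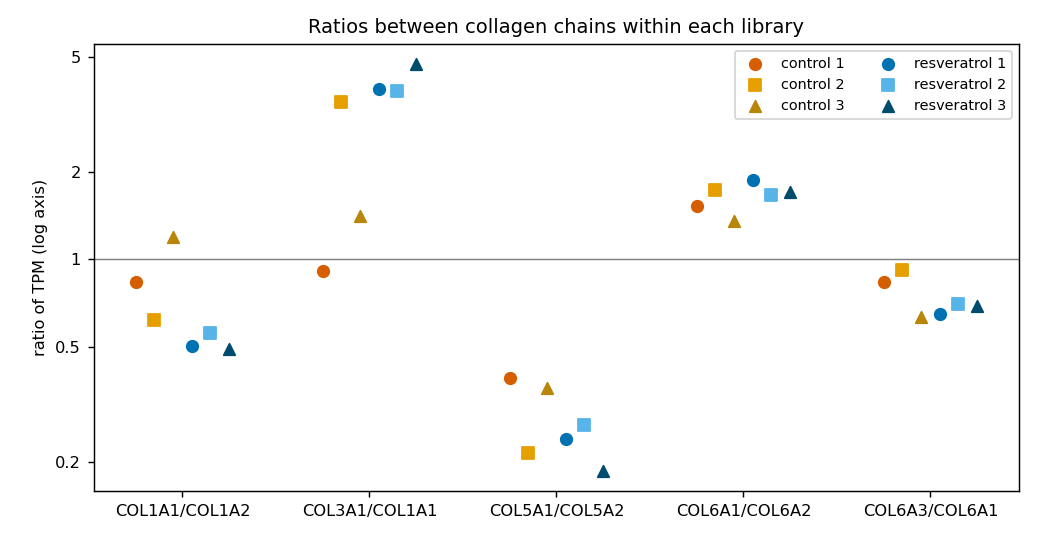
Ratio of TPM between 2 collagen chains within each library (y axis, log scale) for 5 pairs (x axis), with 1 point per library in the colours of the diets, orange and brown for control and blue for resveratrol. The groups separate for COL1A1/COL1A2 (0.491 to 0.558 in resveratrol, 0.617 to 1.198 in control) and for COL3A1/COL1A1, and they overlap for the other 3 pairs.

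With all 6 libraries, the basement membrane chains had the family median nearest to 0, at -0.06 over 5 tested genes. The other medians were -0.39 (fibrillar), -0.47 (type VI), -0.59 (FACIT) and -0.38 (other chains). Without control 1 the families lay closer together. Their medians were then -0.0143 for basement membrane, -0.15 for fibrillar, -0.06 for type VI, -0.03 for FACIT and 0.09 for other chains. Type IV collagen forms the sheet-like network under endothelium and around adipocytes, and types XV and XVIII link that sheet to the matrix and carry endostatin-type domains. COL4A2 measured 208, 200.4 and 188 TPM on the control diet against 163, 218 and 156 TPM with resveratrol. COL15A1 measured 108, 158 and 125 TPM on the control diet against 83.1, 125 and 117 TPM with resveratrol. COL18A1 measured 20.6, 19.5 and 22.6 TPM on the control diet against 18.3, 23.9 and 15.4 TPM with resveratrol. All 3 overlapped between the diets, and none had its highest value in control 1.

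Their log2 fold changes were -0.06 (SE 0.21), -0.13 (SE 0.22) and -0.04 (SE 0.20). Without control 1 they were 0.02, -0.17 and -0.0143. COL4A5 and COL4A6, neighbouring genes whose chains pair in smooth muscle and other specialised membranes, ranged from 3.13 to 6.84 TPM and from 1.68 to 5.03 TPM. Both were highest in resveratrol 2, and their log2 fold changes were -0.11 (SE 0.27) and 0.42 (SE 0.43). Leaving out resveratrol 2 turned that of COL4A6 to -0.14. COL4A3 and COL4A4, another neighbouring pair known from kidney and lung membranes, did not pass the filter, with at most 0.467 and 0.584 TPM.

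Type VI collagen is built from 1 chain each of COL6A1, COL6A2 and COL6A3 and anchors cells to the surrounding fibrils. Summed over all 5 type VI genes, COL6A5 and COL6A6 included, TPM was 1419, 768 and 826 in control 1, 2 and 3. It was 672, 852 and 566 in resveratrol 1, 2 and 3. COL6A1 measured 553, 292 and 340.4 TPM on the control diet against 295, 355 and 237 TPM with resveratrol. COL6A2 measured 363, 168 and 251 TPM on the control diet against 157, 213 and 139 TPM with resveratrol. COL6A3 measured 463, 269 and 215 TPM on the control diet against 191, 249.7 and 163 TPM with resveratrol. In each of the 3, control 1 was highest, resveratrol 3 was lowest, and at least 1 of control 2 and 3 lay inside the resveratrol range. Control 3 lay above that range for COL6A2, and control 2 for COL6A3.

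The log2 fold changes of COL6A1, COL6A2 and COL6A3 were -0.38 (SE 0.29), -0.57 (SE 0.32) and -0.61 (SE 0.33). Without control 1 they were 0.0108, -0.20 and -0.13. Without control 2 all 3 had an edgeR unadjusted p under 0.05, with adjusted p-values of 0.565, 0.364 and 0.594. COL6A6, a chain that can take the place of COL6A3, measured 39.4, 38.2 and 18.8 TPM on the control diet against 28.0, 34.1 and 25.6 TPM with resveratrol. Control 3 was its lowest library, and its log2 fold change was -0.03 (SE 0.26). COL6A5, a further alternative chain, did not pass the filter and measured at most 0.409 TPM. The relative levels of these chains rest on the lengths the authors assigned. COL6A1 had the highest TPM but 77315 reads in all, fewer than COL6A2 (202381) and COL6A3 (562471).

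FACIT collagens sit on the surface of fibrils and space or join them. COL12A1, abundant in tendon and fascia, measured 137, 50.7 and 30.8 TPM on the control diet against 31.2, 39.1 and 25.7 TPM with resveratrol. Control 1 was 4.38 times the median of the other libraries, and the other 5 libraries overlapped. COL14A1, which marks fascia and fat progenitors, measured 158, 108 and 67.5 TPM on the control diet against 84.6, 112 and 71.4 TPM with resveratrol. COL16A1, a minor chain near fibrillin and thin fibrils, measured 67.4, 23.2 and 32.2 TPM on the control diet against 19.7, 24.7 and 17.7 TPM with resveratrol. Only resveratrol 2 reached into the control range of COL16A1.

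The log2 fold change of COL16A1 was -0.93 (SE 0.40), with an edgeR unadjusted p of 0.0449 and an adjusted p of 0.733. Without control 1 it was -0.31, with an unadjusted p of 0.238. The log2 fold changes of COL12A1 and COL14A1 were -1.13 (SE 0.52) and -0.26 (SE 0.35), and -0.19 and 0.26 without control 1. COL21A1, a FACIT of vessel walls, ranged from 1.79 to 3.96 TPM with a log2 fold change of -0.21 (SE 0.34).

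COL22A1, a FACIT of tissue junctions such as that of muscle and tendon, was the single one of the 35 genes whose diets did not overlap in TPM. It measured 0.193, 0.386 and 0.110 TPM on the control diet against 0.568, 0.670 and 0.788 TPM with resveratrol. These values rest on 34, 34 and 20 reads in control and 124, 145 and 172 reads in resveratrol. It lay below the filter. In an edgeR fit of all 19984 rows with at least 1 read, its log2 fold change was 1.77 (SE 0.39), with an unadjusted p of 4.96e-04 and an adjusted p of 0.499. In that set, 3.68% of rows had all resveratrol libraries above all control libraries, and 2.03% were higher at an unadjusted p under 0.05. In control 1 its TPM was 0.339 times the median of the other libraries. The cartilage FACIT chains COL9A1 and COL9A3 held 8 and 60 reads over all libraries, and COL9A1 was listed at 0 in 4 of them.

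The 2 chains of type VIII collagen, a short-chain network former of vessel walls and corneal membrane, had the widest ranges among the 26 tested genes, 10.3-fold for COL8A1 and 24.4-fold for COL8A2. COL8A1 measured 62.8, 9.77 and 7.30 TPM on the control diet against 9.97, 12.5 and 6.10 TPM with resveratrol. COL8A2 measured 14.3, 0.704 and 2.92 TPM on the control diet against 0.596, 0.587 and 0.979 TPM with resveratrol. Control 1 was 6.43 and 20.3 times the median of the other libraries. COL8A2 had its next highest value in control 3, whereas for COL8A1 control 3 lay inside the resveratrol range. The log2 fold change of COL8A2 was -3.03 (SE 1.17), with an edgeR unadjusted p of 0.0454 and an adjusted p of 0.733. Without control 1 it was -1.28, with an unadjusted p of 0.0517, and the log2 fold change of COL8A1 went from -1.47 (SE 0.95) to 0.29.

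The other chains were low. COL13A1, a membrane-spanning collagen of cell contacts, ranged from 1.52 to 2.39 TPM, with a log2 fold change of -0.06 (SE 0.25). COL28A1, a collagen of peripheral nerve, ranged from 0.493 to 1.57 TPM, with a log2 fold change of -0.30 (SE 0.38). COL10A1, the collagen of hypertrophic cartilage, ranged from 0.403 to 0.885 TPM, with a log2 fold change of -0.38 (SE 0.31). COL17A1, COL23A1 and COL25A1, all membrane-spanning chains, did not pass the filter. They held 450, 116 and 162 reads over the 6 libraries.

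Genes that fold, cut, crosslink, bind or induce collagen were taken from 7 fixed lists, in which 77 of 86 genes were tested. In edgeR, 11 of 77 (14.3%) were lower in resveratrol at an unadjusted p under 0.05, against 4.32% of all rows. At that threshold 1 was higher, against 2.21% of all rows. Without control 1 there were 8 (10.4%, against 4.21%). Of the other fits with 1 library left out, that without control 2 gave 22, against 5.69% of all rows. Those without resveratrol 1, 2 and 3 gave 3, 7 and 5. In these 3 fits, 556, 911 and 403 of all 14908 rows reached that threshold in either direction, against 973 with all libraries. None of the 77 passed at an adjusted p under 0.05 in edgeR on all 6 libraries. In TPM, 13 of 77 (16.9%) had all resveratrol libraries below all control libraries, against 8.15% of all rows.

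The machinery inside the cell showed 0 of 18 members at an unadjusted p under 0.05 in either direction. Its median log2 fold change was -0.04, and 0.0587 without control 1. SERPINH1, the collagen chaperone HSP47, measured 274, 217 and 253 TPM on the control diet against 252, 303 and 248 TPM with resveratrol. PPIB, a proline isomerase of the same compartment, measured 273, 253 and 199 TPM on the control diet against 295, 278 and 304 TPM with resveratrol, without overlap. Its log2 fold change was 0.35 (SE 0.19), and 0.51 without control 1, with an edgeR unadjusted p of 0.0240 in that fit. P4HA3, a subunit of prolyl hydroxylase, was high in control 1 (11.3 TPM, and 2.42 to 3.48 TPM elsewhere). P3H2, a prolyl 3-hydroxylase, had a log2 fold change of -0.32 (SE 0.20). Without control 1 it was -0.47, with an edgeR unadjusted p of 0.0441. P4HA3 was thus highest in the same library as the type I chains. Of the 18 members, 9 had their highest TPM in control 1, against 13.0% of all rows. SERPINH1 spanned a narrower range and was highest in resveratrol 2.

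Outside the cell, 2 of 12 tested genes for cleavage and crosslinking were lower at an unadjusted p under 0.05, against 4.32% of all rows. BMP1, the protease that removes the C-propeptide of fibrillar procollagens, measured 26.6, 32.9 and 27.9 TPM on the control diet against 17.1, 24.1 and 19.6 TPM with resveratrol. The groups did not overlap, control 1 was its lowest control library, and the log2 fold change was -0.43 (SE 0.17) and -0.44 without control 1. LOXL3, an oxidase that crosslinks collagen and elastin, measured 10.5, 4.09 and 4.70 TPM on the control diet against 3.28, 3.91 and 2.70 TPM with resveratrol. Its log2 fold change of -0.92 (SE 0.37) was -0.30 without control 1. LOX, the founding member of that family, measured 127 TPM in control 1 and 40.4 to 59.8 TPM elsewhere.

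Among proteins bound to fibrils, 2 of 12 were lower and 1 was higher at an unadjusted p under 0.05, against 4.32% and 2.21% of all rows. TNC (tenascin C, a matrix protein of tendon and wounds) measured 49.8, 12.4 and 12.3 TPM on the control diet against 6.50, 7.71 and 4.44 TPM with resveratrol. BGN (biglycan, a small proteoglycan) measured 136, 53.4 and 41.6 TPM on the control diet against 30.8, 36.7 and 17.8 TPM with resveratrol. Neither gene overlapped between the diets, and their log2 fold changes of -1.95 and -1.40 were -0.89 and -0.61 without control 1. POSTN (periostin, which helps assemble type I fibrils) measured 298, 428 and 155 TPM on the control diet against 444, 463 and 368 TPM with resveratrol. Control 2 lay inside the resveratrol range, and the log2 fold change of POSTN was 0.65 (SE 0.29).

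Of the 10 tested collagen receptors, ITGA2 and ITGA11 were lower at an unadjusted p under 0.05, against 4.32% of all rows. Both are integrin chains that bind collagen triple helices. ITGA11 measured 10.8, 4.12 and 4.88 TPM on the control diet against 3.48, 3.88 and 2.82 TPM with resveratrol, and its log2 fold change of -0.91 was -0.29 without control 1. ITGA2 measured 4.90, 2.55 and 1.18 TPM on the control diet against 0.978, 1.19 and 1.01 TPM with resveratrol, so that control 3 lay just inside the resveratrol range. Its log2 fold change of -1.36 was -0.62 without control 1. LAMA5, a laminin chain, was the 1 of 9 basement membrane partners at that threshold, at -0.58 (SE 0.19). None of the 4 tested collagenases and gelatinases reached that threshold in edgeR. Their log2 fold change was -0.34 (SE 0.27) for MMP2, a gelatinase of stromal cells that was highest in control 1 and had 0.0723 without it, 0.16 (SE 0.19) for MMP14, a membrane collagenase, and 0.28 (SE 0.19) for FAP, a protease of activated fibroblasts; MMP9, a gelatinase of leukocytes, had -0.24 (SE 0.54).

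All 12 genes listed as inducers or regulators of collagen transcription had a log2 fold change below 0, against 51.2% of all rows, and 4 were lower at an edgeR unadjusted p under 0.05, against 4.32%. Without control 1 the 4 became 2, TGFB2 (0.0095) and SP1 (0.01023) lay above 0, and the list's median went from -0.28 to -0.09. Among these, CCN2 (connective tissue growth factor), SMAD3 (a signal carrier of TGF-beta receptors) and SCX (a tendon transcription factor) had log2 fold changes of -0.90, -0.40 and -1.31, and of -0.56, -0.30 and -0.77 without control 1. Of TGF-beta ligands, TGFB1 had -0.28 (SE 0.18) on that scale, TGFB2 -0.12 (SE 0.17) and TGFB3, highest in control 1, -0.73 (SE 0.46). Without control 1, TGFB1 had -0.21 and TGFB3 -0.0236. SCX is also one of the tendon markers above.

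Markers of cells that make or border collagen were set beside these values. PDGFRA, a receptor of fibroblasts and fat progenitors, measured 17.7, 20.9 and 14.6 TPM on the control diet against 18.2, 16.8 and 14.3 TPM with resveratrol. Of that list's 7 markers, 3 had their highest TPM in control 1, and its summed TPM was 232 to 376 in control and 309 to 336 in resveratrol. MFAP5, a microfibril protein of progenitors, measured 147, 108 and 69.3 TPM on the control diet against 164, 169.6 and 167 TPM with resveratrol. The groups did not overlap for MFAP5, and its log2 fold change was 0.69 (SE 0.26), with an edgeR adjusted p of 0.733, and 1.07 without control 1. FBLN1, a fibulin of the same list, measured 90.4, 44.9 and 49.3 TPM on the control diet against 44.1, 38.6 and 28.3 TPM with resveratrol. It did not overlap either and lay the other way, at -0.68 (SE 0.30), and at -0.23 without control 1. All 6 macrophage markers had a log2 fold change above 0, 4 of them with an edgeR unadjusted p under 0.05 (2.21% of all rows were higher at that threshold), and their summed TPM was 232 to 239 on the control diet and 285 to 401 with resveratrol. The part of these cells in the collagen values was not tested.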

How the data were processed

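Per the file headers, the authors deposited for each of the 6 libraries the read count (whole numbers) and the TPM of 22844 rows. A deposited series table of 14777 rows held the same TPM. Bowtie 0.12.2 is named in the submitters' processing notes, with mouse builds; the sources used here do not name the pig build, annotation, counter or use of strand, so no coordinates or sequences are printed, and reads of overlapping genes cannot be told apart. Symbols, matched for 14750 rows, came from a table of gene identifiers. The members and all lists were chosen with earlier results of these data known.

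The 14908 rows whose mean reached 0.5 TPM were TMM-scaled and tested in edgeR 4.0.16 (quasi-likelihood, robust), with p-values adjusted by Benjamini-Hochberg over all of them and a threshold of 0.05. The test was checked on simulated data with less spread between libraries than here and no library standing apart. That check therefore does not cover a spread like that of control 1. SE is the log2 fold change over the square root of F. Ratios of chains were tested by exact permutation, and the planned COL4A1/COL4A2 ratio was not computed. Alternatives used DESeq2 1.42.0, limma 3.58.1 and R 4.3.3, other scalings and filters, a replicate block and each library left out. Values in every library are given for members with a mean of at least 10 TPM, with an unadjusted p under 0.05 or with diets that do not overlap, and for the other lists the text takes genes at an unadjusted p under 0.05 or, where a list has none, up to 3 with the smallest p; SERPINH1, LOX, MMP9, SP1, the TGF-beta ligands, PDGFRA, MFAP5 and FBLN1 were chosen after their values were seen. Replicates of a group differed by more than sampling noise, with a chi-square per degree of freedom of at least 64.9. A few genes that the naming rule takes are not reported here.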

Additional observations from a re-analysis of the deposited data

How the results depend on the processing

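The collagen median and the count of genes below 0 moved most without control 1, and the count at an unadjusted p under 0.05 moved most without control 2. No collagen gene passed an adjusted p under 0.05 under any of the 17 alternatives. Over the fits that leave out 1 library, rows called at an adjusted p under 0.05 ranged from 0 to 5, and DESeq2 on all libraries called 40, none of them a collagen gene. Rows at an unadjusted p under 0.05 ranged from 403 to 1681, collagen genes lower at that threshold from 0 to 8, collagen genes below 0 from 14 to 24, collagen-handling genes lower at that threshold from 3 to 22, and the collagen median from -0.50 to -0.0118. The 3 collagen genes became 1 in limma on log2(TPM + 1) and 1 with no filter beyond 1 read. The cause of these changes was not tested.

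Same-numbered libraries deviated together with correlations of 0.157, 0.0741 and 0.20, and each library correlated best with its own number, but the second pair lay under 0.1, so the numbers were not taken as a pairing. With the replicate block, 0 of 26 collagen genes were lower at an unadjusted p under 0.05, the median was -0.30 and COL6A6 had a log2 fold change of 0.0285.

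Under some alternatives genes turned sign. With library totals alone, COL13A1 (0.0252), COL18A1 (0.0366), COL4A2 (0.0058) and COL6A6 (0.0163) did, and in limma on log2 TPM COL5A2 did (-0.0705, -0.0704 and -0.0705 with pseudocounts of 0.5, 1 and 0.1). Leaving out 1 library at a time gave sign changes for 15 genes, with ranges of -0.18 to 0.0927 for COL13A1, -0.53 to 0.26 for COL14A1, -0.23 to 0.0571 for COL15A1, -0.20 to 0.0733 for COL18A1, -0.97 to 0.17 for COL1A2, -0.54 to 0.135 for COL21A1, -0.72 to 0.14 for COL28A1, -0.19 to 0.0231 for COL4A2, -0.47 to 0.0812 for COL4A5, -0.14 to 0.66 for COL4A6, -0.0677 to 0.18 for COL5A2, -0.0374 to 0.31 for COL5A3, -0.62 to 0.0108 for COL6A1, -0.28 to 0.22 for COL6A6 and -1.91 to 0.29 for COL8A1. The ratios of chains, computed from reads in place of TPM or without any 1 library (chosen after seeing the data), kept their direction. COL24A1 and COL4A6 rest on few reads (64 and 353 over the 6 libraries), and the effect of depth on their values was not tested.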
